A study of Macaca mulatta with 12 samples.

Results

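Genes of cholesterol synthesis and lipoprotein handling were followed in female rhesus macaques, in the dorsal raphe, a midbrain nucleus whose serotonin neurons project to the forebrain. The list held 34 genes, and 30 of them had a probe set that carried only that gene's symbol, of 8226 such genes on the array. Each gene was read on its brightest probe set by mean over the 12 arrays. For 27 genes that probe set was bright enough to be tested, of 5499 genes in all. FDFT1, SOAT1 and CYP46A1 had no single-symbol probe set, and the probe set of CYP51A1 also carried the symbol of another gene, so these 4 were not analysed here.

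The study had 4 groups of 3 monkeys, with 1 array per monkey. The groups carried subcutaneous Silastic capsules for 1 month with estrogen, with progesterone, with estrogen and progesterone together, or with placebo. Placebo animals are coded OVX in the labels, the usual abbreviation for ovariectomized, and the labels used here give no steroid dose, age or ovarian status for the other groups. The titles of the progesterone animals carry the codes of the combined group, so their group was taken from the source names.

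Brain cells make their own cholesterol, because lipoproteins of the blood do not cross the blood-brain barrier, and astrocytes and myelinating oligodendrocytes are its main users and makers. Synthesis runs from acetyl-CoA through mevalonate, isoprenoid units and squalene to lanosterol, which is then trimmed to cholesterol. When sterols are scarce, SCAP carries the SREBP transcription factors out of the endoplasmic reticulum to be cut and activated, and INSIG proteins hold them back when sterols are plentiful. Glia pass cholesterol to neurons on lipoprotein particles loaded by ABC transporters, and neurons take these up through receptors of the lipoprotein receptor family.

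Values are linear intensities. Since macaque RNA was hybridized to probes designed for human genes, mismatches also affect the intensity, and levels are not compared between probe sets. The replicates are separate monkeys, and 3 arrays per group limit the precision. Log2 changes were fitted on log2(intensity + 8.26) after quantile normalization and are given with their standard error (SE), and an adjusted p is limma's with Benjamini-Hochberg adjustment over all 7535 tested probe sets. The added constant shrinks the log2 changes of dim probe sets. Groups are said not to overlap where all normalized values of one lay above or below all those of the other.

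The first arrays of the estrogen group and of the group with both hormones differed from the rest and are called the rRNA-rich arrays. Their 28S ribosomal RNA controls read up to 841 and 1354, against at most 182 on the other 10 arrays, and their 3' to 5' GAPDH ratios were 2.45 and 2.05, against at most 1.46. Serotonin neuron markers were present, with the transporter SLC6A4 at 220 to 495, while TPH1, an enzyme of serotonin synthesis, read between 0.53 and 3.6. The summed intensity of the 9 serotonin neuron markers was 1074 to 1289 on the progesterone arrays and 1354 to 1675 on the placebo arrays, that of 10 astrocyte markers 16387 to 17048 and 13281 to 14767, and that of 8 oligodendrocyte markers 19044 to 26160 and 17851 to 20838, in that order. The oligodendrocyte sum was 14118 to 19450 with estrogen and 16762 to 21723 with both hormones. The astrocyte sum was 14839 to 16634 with estrogen and 15187 to 16865 with both hormones, so every hormone group lay above placebo. For the serotonin neuron markers it was 1485 to 1578 with estrogen and 1332 to 1525 with both hormones. The astrocyte sums rest mostly on ALDOC, at 9280 to 10073 with progesterone and 6988 to 8946 with placebo, and on SLC1A2, which read 293 on placebo array 1 and at least 3373 on every other array. Of the 10 astrocyte markers, 6 were higher and 4 lower with progesterone than with placebo, with a median log2 change of 0.08. The 3 at an unadjusted p under 0.05 were all lower, SOX9 at −0.80, GFAP at −0.42 and GLUL at −0.45 on the log2 scale. Their limma adjusted p was 0.177, 0.528 and 0.573. The summed intensity of 8 microglia markers was 1031 to 1086 with estrogen and 1154 to 1400 with placebo. It was 1089 to 1594 with progesterone and 1024 to 1285 with both hormones. Of the 6 microglia markers tested, 5 were lower and 1 higher with estrogen than with placebo. No marker of these lists passed the adjusted threshold, and their part in the results was not tested. In tissue RNA, fewer cells of a type and less RNA per cell cannot be told apart.

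None of the 27 tested genes passed an adjusted p of 0.05 in any comparison. With estrogen alone, 14 lay above and 13 below placebo, and the median log2 change was 0.03, against −0.0047 over all tested probe sets. With progesterone alone the count was 10 above and 17 below, and the median was −0.07, against 0.0022. With both hormones it was 15 above and 12 below, with a median of 0.06, against −0.0031. Leaving out 1 array moved these medians: the estrogen median was −0.05 without estrogen array 2, the progesterone median −0.14 without progesterone array 1, and the median with both hormones −0.01 without placebo array 1 or 3. The 95% interval stayed within a log2 change of 1 on either side of 0 for 20 of 27 genes in the estrogen comparison, 21 in that of progesterone and 22 in that of both hormones.

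**Figure D1:**
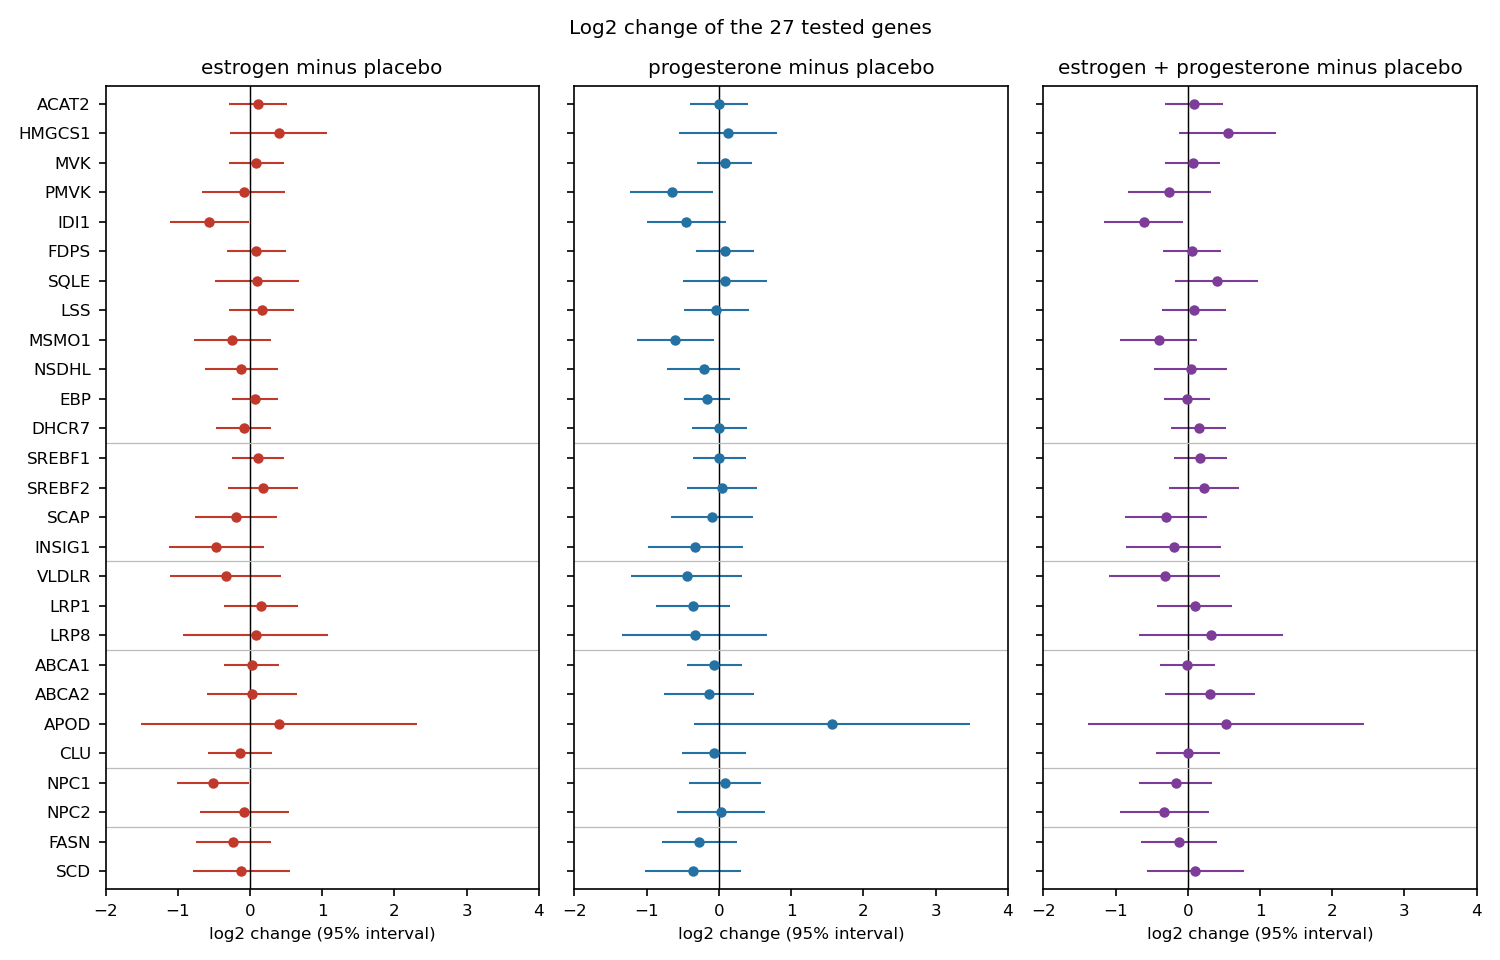
Log2 change against placebo (horizontal axis) of each of the 27 tested genes, 1 panel per hormone group, with 95% intervals from limma; grey lines part synthesis, sensing, receptors, efflux and carriers, traffic, and fatty acid synthesis. Most intervals cross 0, those of IDI1, PMVK, MSMO1 and NPC1 do not in at least 1 panel, and APOD has the widest.

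The share of genes past an unadjusted p of 0.05 stayed small. With estrogen 2 of 27 genes (7.41%) did so, IDI1 and NPC1, against 238 probe sets (3.16%) over the array, and no probe set (0%) passed the adjusted threshold. With progesterone 2 genes (7.41%) did so, PMVK and MSMO1, against 8.24% of all probe sets, where 3 probe sets (0.0398%) passed the adjusted threshold. With both hormones 1 gene (3.7%) did so, IDI1, against 3.38%, and 1 probe set (0.0133%) passed the adjusted threshold. The counts for progesterone and for both hormones are thus near those over the whole array, and 2 genes are too few to read a difference from with estrogen. Without placebo array 1 each of the 3 counts was 0.

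Among the enzymes of the first steps, HMGCS1, which makes HMG-CoA, read 176, 153 and 141 with estrogen, 127, 149 and 104 with progesterone, and 174, 170 and 182 with both hormones, against 103, 65.8 and 216 with placebo. The placebo animals alone spanned more than all hormone animals together. Its log2 change was 0.40 ± 0.31 with estrogen, 0.13 ± 0.31 with progesterone and 0.55 ± 0.31 with the 2 hormones together (SE), with adjusted p from 0.957 to 0.9999. ACAT2, which joins acetyl-CoA units, gave 0.11 with estrogen, −0.0018 with progesterone and 0.09 with the 2 hormones together.

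MVK, which phosphorylates mevalonate, was among the steadiest genes. It read 1136, 911 and 938 with estrogen, 996, 971 and 995 with progesterone, and 1009, 917 and 971 with both hormones, against 774, 1055 and 967 with placebo. The groups overlapped, and the log2 changes were 0.09, 0.08 and 0.07, each ± 0.17 (SE).

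PMVK, the enzyme after MVK, had its lowest readings with progesterone alone. It read 102, 94.6 and 69.0 on the progesterone arrays, against 150, 124 and 159 on the placebo arrays, and the groups did not overlap. The log2 change was −0.65 ± 0.26 (SE, unadjusted p = 0.0296, adjusted p = 0.546), and −0.50 without progesterone array 3. It read 118, 152 and 145 with estrogen, a change of −0.09. With both hormones it read 163, 145 and 74.3, so 1 animal lay above the placebo range, 1 within it and 1 in the progesterone range, and the change was −0.26. MVD, which closes the mevalonate steps, read only 9.6 to 24.9 over the 12 arrays and was too dim to be tested.

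IDI1, which isomerizes the isoprenoid unit, had lower means in all hormone groups than with placebo. It read 305, 184 and 187 with estrogen, 256, 190 and 266 with progesterone, and 267, 194 and 184 with both hormones, against 393, 363 and 251 with placebo. Placebo array 3, at 251, lay within the range of every hormone group. The log2 change was −0.56 ± 0.25 with estrogen (unadjusted p = 0.0454, adjusted p = 0.9999), −0.45 ± 0.25 with progesterone (adjusted p = 0.697) and −0.61 ± 0.25 with the 2 hormones together (unadjusted p = 0.0314, adjusted p = 0.999). These 3 values share the same placebo arrays.

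In the estrogen group and in the group with both hormones, the highest IDI1 reading came from the array with high ribosomal signal. Without those 2 arrays the change was −0.78 ± 0.23 with estrogen (limma adjusted p = 0.908) and −0.77 ± 0.23 with both hormones (limma adjusted p = 0.998). Without placebo array 1 it was −0.42 with estrogen and −0.47 with both hormones.

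FDPS, which builds farnesyl diphosphate, varied little, with a change of 0.09 under estrogen, 0.08 under progesterone and 0.06 under both. SQLE, which adds oxygen to squalene at a rate-limiting step, read 109, 98.1 and 79.4 with both hormones, against 60.03, 67.0 and 76.2 with placebo. These groups did not overlap, yet the log2 change of 0.40 ± 0.26 (SE) had an adjusted p of 0.999, and it was 0.33 without the 2 rRNA-rich arrays. With estrogen SQLE read 67.2, 104 and 59.97, and with progesterone 46.0, 97.3 and 84.7, and the changes were 0.10 and 0.08. On the brightest probe sets SQLE was the only gene of the list whose arrays with both hormones did not overlap those with placebo, 1 of 27 (3.7%), against 8.92% of all probe sets.

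The enzymes that turn lanosterol into cholesterol gave small values except MSMO1, the methyl sterol oxidase. On its brighter probe set MSMO1 read 74.5, 62.3 and 71.7 with progesterone, against 129, 96.9 and 105 with placebo, without overlap. The log2 change was −0.60 ± 0.25 (SE, unadjusted p = 0.0301, adjusted p = 0.546), and −0.46 without placebo array 1. It read 145, 82.2 and 63.9 with estrogen and 108, 79.9 and 65.1 with both hormones, changes of −0.24 and −0.41. In both of these groups the high reading was that of array 1, the one with high ribosomal signal.

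The second MSMO1 probe set did not follow the first in every animal. It read 50.8, 111 and 53.0 with progesterone, against 87.7, 101 and 82.7 with placebo, so progesterone animal 2 was above all placebo animals there while it was the lowest animal of all on the brighter probe set. Its change was −0.39 with progesterone, −0.03 with estrogen and −0.63 ± 0.24 with both hormones (SE, unadjusted p = 0.0237, adjusted p = 0.999), a smaller p than that of any brightest probe set of the list against placebo. With both hormones it read 65.5, 53.1 and 52.6, below every placebo and every estrogen array.

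EBP had the smallest spread within groups of the 27 genes, a pooled SD of 0.10 on the log2 scale, and it gave 0.07 with estrogen, −0.16 with progesterone and −0.01 with the 2 hormones together. LSS, the cyclase that forms lanosterol, gave 0.16, −0.04 and 0.09 in that order. NSDHL gave −0.12, −0.21 and 0.04, and DHCR7, which catalyses a last step to cholesterol, gave −0.09, 0.0048 and 0.15. SC5D read 24.3 to 90.3 and was too dim to be tested. Of the 12 tested synthesis enzymes, 7 were above placebo in the estrogen group, 5 in the progesterone group and 8 in the combined group, and their median changes were 0.08, −0.02 and 0.06.

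**Figure D2:**
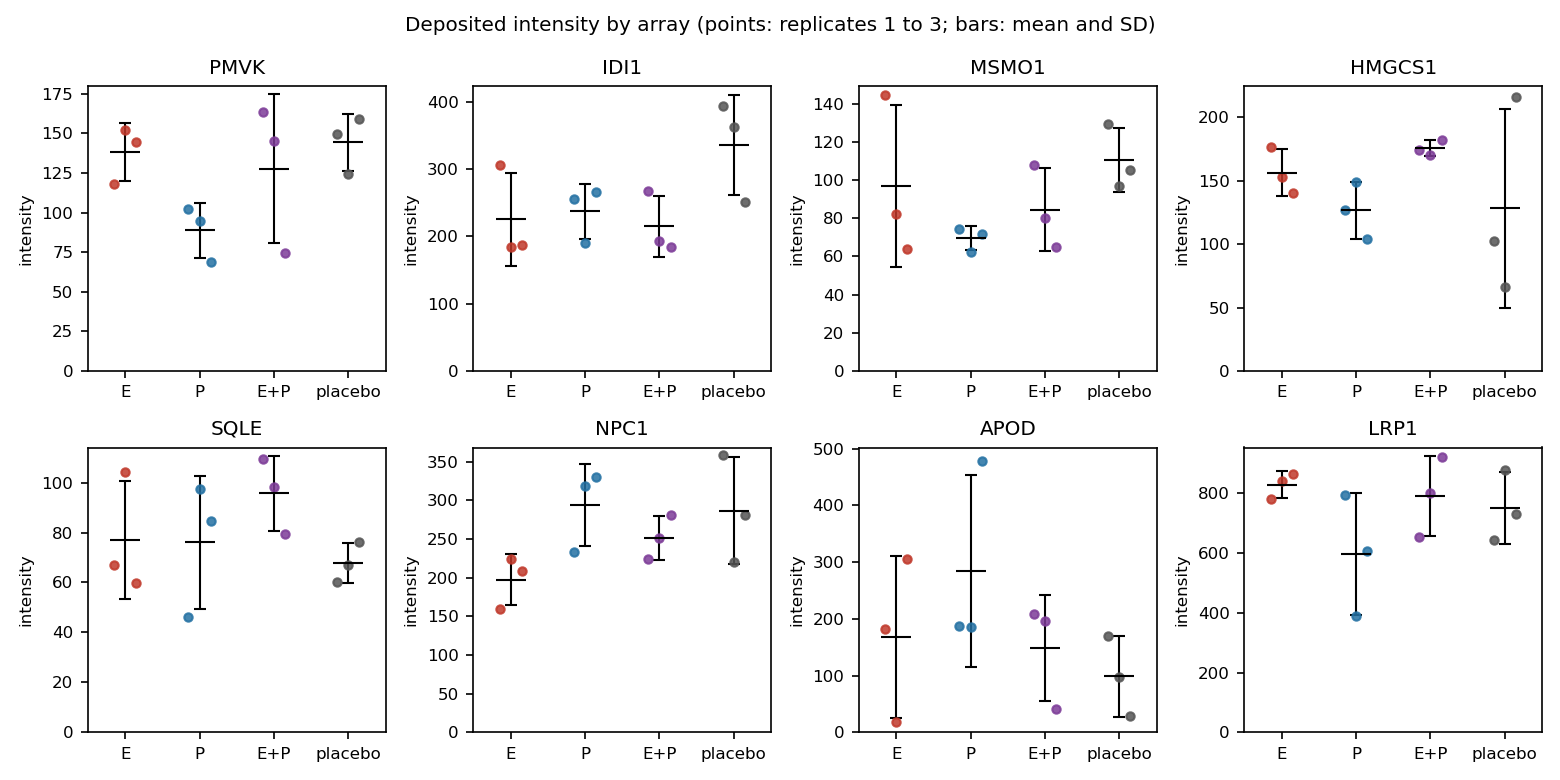
Deposited intensity (vertical axis, from 0) of 8 genes on each array for estrogen (E), progesterone (P), both hormones (E+P) and placebo, with points for replicates 1 to 3 from left to right and bars for the mean and SD (n = 3). PMVK and MSMO1 are low on all 3 progesterone arrays, IDI1 is highest on 2 placebo arrays, and APOD spans 18.7 to 479.

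The sensing genes, which decide how much SREBP is active, showed no difference past the test. SREBF1, which encodes the SREBP-1 factors, read 964, 810 and 826 with estrogen, 844, 778 and 766 with progesterone, and 868, 1025 and 803 with both hormones, against 874, 763 and 764 with placebo. Each hormone group overlapped the placebo range, and the changes were 0.11, 0.0078 and 0.18, each ± 0.17 (SE). SREBF2, whose product is the main activator of the sterol enzymes, gave 0.19, 0.04 and 0.22 with estrogen, progesterone and both hormones. SCAP gave −0.20, −0.10 and −0.31. INSIG1, itself a target of SREBP, gave −0.47, −0.33 and −0.20, and its 12 readings ran from 58.1 to 148. The smallest unadjusted p of these 4 genes in any limma test was 0.148, for INSIG1 with estrogen.

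The lipoprotein receptors all had lower means with progesterone alone than with placebo, and none of these differences passed the test. LRP1, a large endocytic receptor of neurons and astrocytes, read 795, 388 and 606 with progesterone, against 641, 877 and 729 with placebo. Progesterone array 2 was the lowest of all 12 arrays, progesterone array 1 lay within the placebo range, and the change was −0.35 ± 0.24 (SE, adjusted p = 0.743). LRP1 read 779, 841 and 864 with estrogen and 651, 800 and 919 with both hormones, changes of 0.16 and 0.09. VLDLR and LRP8, the paired receptors of reelin, gave −0.44 and −0.34 with progesterone, −0.33 and 0.08 with estrogen, and −0.32 and 0.32 with both hormones. LRP8 ran from 42.7 on estrogen array 1 to 171 on estrogen array 3, so its extremes fell in the same group, the low one on an array with high ribosomal signal.

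Among the genes of efflux and carriage, CLU, the abundant glial apolipoprotein clusterin, read 6510, 7131 and 5370 with estrogen, 7487, 5820 and 8635 with progesterone, and 7507, 6684 and 6904 with both hormones, against 8740, 6650 and 5449 with placebo. The groups overlapped, with changes of −0.13, −0.07 and −0.0033, each ± 0.20 (SE). The sign of 2 of these depends on the scaling: on values as deposited the change of CLU was 0.08 with progesterone and 0.04 with both hormones. ABCA1, which loads cholesterol onto apolipoproteins, gave 0.03, −0.06 and −0.0082 on its brighter probe set and 0.27, 0.21 and 0.33 on the other tested one. ABCA2, a lipid transporter rich in oligodendrocytes, gave 0.03, −0.14 and 0.30. Its other tested probe set had mean intensities of 670, 532 and 825 in that order, against 759 with placebo. ABCG1 read 7.7 to 37.7 and was too dim to be tested.

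APOD, a small lipid-binding apolipoprotein made by glia, differed far more between animals than any other gene of the list. It read 181, 18.7 and 305 with estrogen, 188, 186 and 479 with progesterone, and 208, 196 and 40.7 with both hormones, against 170, 98.002 and 28.4 with placebo. The highest reading was 25.6 times the lowest, and within groups its SD of 1.29 on the log2 scale exceeded that of 99.9% of tested probe sets. All progesterone animals lay above all placebo animals, and the change of 1.57 ± 0.87 (SE) had a 95% interval of −0.34 to 3.48 and an adjusted p of 0.697. Without placebo array 3 the change was 0.94. With estrogen and with both hormones the changes were 0.41 and 0.53, each ± 0.87. The array with the lowest APOD reading, estrogen array 2, also had the lowest summed oligodendrocyte markers, 14118, while placebo array 3, at the next lowest APOD reading, had 18207. The part of cell makeup in the APOD spread was not tested.

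**Figure D3:**
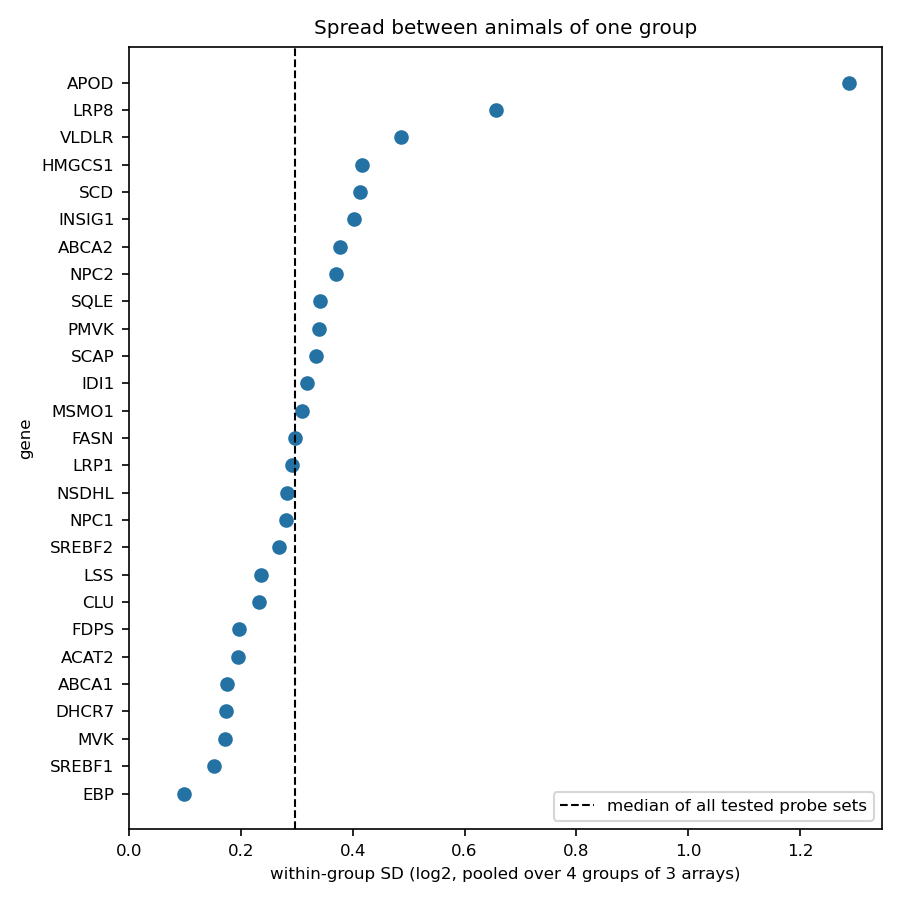
Pooled within-group SD of log2 values (horizontal axis) for each of the 27 tested genes, with the median of all 7535 tested probe sets as a dashed line. APOD lies at 1.29, LRP8 at 0.66 and EBP at 0.10, with 13 genes above the line.

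Apart from APOD the list was about as variable as the array. The median within-group SD was 0.30 over the 27 genes and 0.30 over all tested probe sets, and 13 genes lay above the latter. Over the 12 arrays, 11 genes spanned less than 2-fold and 2 genes, APOD and LRP8, spanned more than 4-fold.

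NPC1 and NPC2 hand cholesterol out of the lysosome. NPC1 read 160, 224 and 209 with estrogen, 233, 318 and 330 with progesterone, and 224, 251 and 281 with both hormones, against 358, 220 and 280 with placebo. The lowest reading was that of estrogen array 1, one of the arrays with high ribosomal signal, and placebo array 2 lay within the estrogen range. With estrogen the change was −0.51 ± 0.23 (SE, unadjusted p = 0.0463, adjusted p = 0.9999), and it was −0.35 ± 0.24 without the 2 rRNA-rich arrays and −0.33 without placebo array 1. With progesterone it was 0.08 and with both hormones −0.17. On a second NPC1 probe set the change was −0.34 with estrogen, −0.12 with progesterone and −0.13 with both. NPC2 gave −0.08, 0.03 and −0.32.

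FASN and SCD, the SREBP-1 targets that build and desaturate fatty acids, showed no difference past the spread. FASN read 598, 759 and 608 with estrogen, 842, 490 and 612 with progesterone, and 664, 754 and 687 with both hormones, against 571, 1008 and 782 with placebo. Its changes were −0.23, −0.27 and −0.12, each ± 0.24 (SE). SCD gave −0.12, −0.36 and 0.10.

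**Figure D4:**
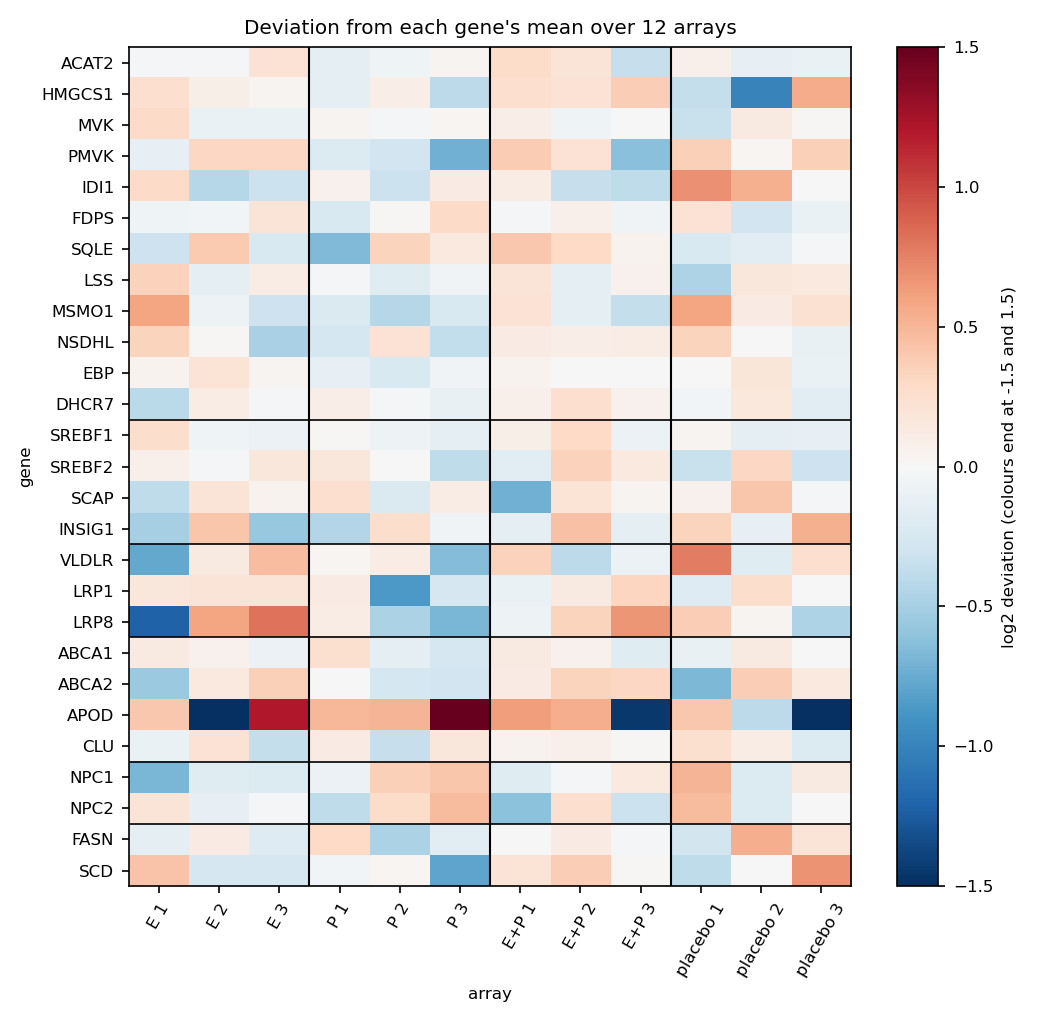
Deviation of each normalized log2 value from the gene's mean over 12 arrays (colour, red above and blue below) for 27 genes (rows, by role) and 12 arrays (columns: estrogen E, progesterone P, both E+P, placebo). No role block has 1 colour throughout a group, and the strongest colours are those of APOD.

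Read array by array, the synthesis enzymes had medians below 0 on all 3 progesterone arrays, and on 1 of 3 arrays each with both hormones and with placebo. The median deviation of the 12 enzymes from their own 12-array means was −0.13, −0.05 and −0.06 on the progesterone arrays, 0.15, 0.0013 and 0.01 on the estrogen arrays, and 0.16, 0.09 and −0.0047 on the arrays with both hormones, against 0.04, 0.08 and −0.01 on the placebo arrays. The highest medians, 0.15 and 0.16, belonged to the 2 arrays with high ribosomal signal, and their part in these values was not tested. Over all 27 genes the medians ran from −0.11 on progesterone array 3 to 0.19 on estrogen plus progesterone array 2.

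Adding progesterone to estrogen gave 15 of 27 genes above and 12 below estrogen alone, with a median of 0.04, against 0.0019 over all tested probe sets, and of 0.11 without estrogen plus progesterone array 3. At an unadjusted p under 0.05 limma counted 0 genes of the list, against 2.87% of all probe sets, and 0% passed the adjusted threshold anywhere. No gene of the list had groups without overlap on its brightest probe set, against 6.74% over the array. The deviations of the 3 same-numbered pairs of these groups correlated at 0.13 to 0.41, and those of the 6 other pairs at −0.35 to 0.21, with the 2 rRNA-rich arrays forming the pair at 0.41. With the number as a block in a limma fit of these 6 arrays alone, chosen after the data were seen, 0 genes of the list passed an unadjusted p of 0.05, against 4.64% of all probe sets, and no probe set passed the adjusted threshold.

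Estrogen plus progesterone against progesterone alone gave 20 of 27 genes above and 7 below, with a median of 0.14, against −0.0026 over all tested probe sets, and of 0.08 without estrogen plus progesterone array 2. By limma 0 genes of the list passed an unadjusted p of 0.05, against 7.71% over the array, and 0.0133% passed the adjusted threshold. The count was 3 with array weights, 3 in a fit of these 2 groups alone and 1 without the 2 rRNA-rich arrays. The groups did not overlap for 3 of 27 genes (11.1%), against 15.7% of all probe sets, a share below that of the whole array. These were HMGCS1 at 0.43 ± 0.31, EBP at 0.15 ± 0.15 and ABCA2 at 0.44 ± 0.28 (SE), and at 0.44, 0.13 and 0.50 in that order without the 2 rRNA-rich arrays. ABCA2 read 1732, 2096 and 2119 with both hormones, against 1689, 1462 and 1390 with progesterone. A second ABCA2 probe set gave 0.67, but there the groups overlapped, at 684, 866 and 926 with both hormones against 738, 471 and 388. The comparison of progesterone with placebo uses the same progesterone arrays, and there 3 of 27 genes (11.1%) did not overlap, PMVK, MSMO1 and APOD, against 16.7% over the array. With estrogen against placebo it was 0 genes, against 6.13%.

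Averaged over the presence of progesterone, 6 arrays with estrogen were set against 6 without. No gene had groups without overlap, against 0.332% of all probe sets. The genes split 17 above and 10 below, with a median of 0.04, against −0.0019 over the array. NPC1 at −0.38 ± 0.16 (SE, adjusted p = 0.808) was the only gene of 27 (3.7%) at an unadjusted p under 0.05, against 5.83% of all probe sets and 0.0133% at the adjusted threshold. Without the 2 rRNA-rich arrays NPC1 gave −0.26. Averaged over the presence of estrogen, 6 arrays with progesterone gave 11 genes above and 16 below the 6 without, with a median of −0.03, against −0.0002 over the array. PMVK at −0.41 ± 0.19 and MSMO1 at −0.38 ± 0.17 (adjusted p = 0.847 for each) made up 7.41% of the genes at an unadjusted p under 0.05, against 5.84% over the array and 0% at the adjusted threshold. No gene had groups without overlap here either, against 0.212%. PMVK gave −0.26 without estrogen plus progesterone array 3, and MSMO1 gave −0.25 without estrogen array 1. Without the 2 rRNA-rich arrays PMVK gave −0.59 and MSMO1 −0.33.

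The interaction of the hormones, which asks whether the change with both differs from the sum of the single changes on the log2 scale, was above 0 for 19 of 27 genes, with a median of 0.22, against 0.0043 over all tested probe sets. The median was 0.13 without the 2 rRNA-rich arrays, 0.09 without estrogen array 1, and 0.13 without estrogen array 3. No gene passed an unadjusted p of 0.05 by limma, against 4.99% of all probe sets, and 0% passed the adjusted threshold. The values ran from −1.44 for APOD to 0.60 for INSIG1, and the median SE was 0.34. Limma's F test over the 4 groups also gave 0 genes of the list at an unadjusted p under 0.05, against 5.79% over the array and 0.0531% at the adjusted threshold. That count was 4 without the 2 rRNA-rich arrays, 3 without estrogen array 1 and 3 with array weights.

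Of 72 further genes of the pathway, 57 had a single-symbol probe set and 39 were tested. None passed the adjusted threshold. With estrogen 23 lay above and 16 below placebo (3 past an unadjusted p of 0.05, all higher), with progesterone 19 and 20 (2 higher and 2 lower), and with both hormones 21 and 18 (1 higher). FADS2, the desaturase that opens the synthesis of polyunsaturated fatty acids and a target of SREBP-1, had the smallest p of them. It read 145, 217 and 193 with progesterone, against 504, 324 and 366 with placebo, without overlap, a change of −1.04 ± 0.28 (SE, unadjusted p = 0.0032, adjusted p = 0.352). With estrogen and with both hormones FADS2 gave −0.33 and −0.28.

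LRP5, a Wnt co-receptor of the lipoprotein receptor family, read 103, 111 and 118 with progesterone, against 21.0, 74.9 and 73.9 with placebo, a change of 1.03 ± 0.41 (SE, adjusted p = 0.531) that was 0.55 without placebo array 1. SORL1, a sorting receptor of the same family, read 1440, 1723 and 1627 with estrogen, against 479, 1087 and 1145 with placebo, a change of 0.91 ± 0.29 (adjusted p = 0.9999). It was 0.50 without placebo array 1 and 0.94 without the 2 rRNA-rich arrays, and a second SORL1 probe set gave −0.09. INSIG2, the partner of INSIG1 in holding SCAP back, read 230, 392.1 and 442 with estrogen, against 186, 256 and 164 with placebo, 0.75 ± 0.26 (adjusted p = 0.9999), and 1.04 without the 2 rRNA-rich arrays. LCAT, which esterifies cholesterol on lipoprotein particles, read 149, 253 and 158 with both hormones, against 70.5, 113 and 140 with placebo, 0.72 ± 0.29 (limma adjusted p = 0.999), and 0.88 without the 2 rRNA-rich arrays. With estrogen alone LCAT gave 0.80 ± 0.29 (unadjusted p = 0.0183, limma adjusted p = 0.9999) and with progesterone 0.52 ± 0.29.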

How the data were processed

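RNA of the dorsal raphe nucleus was hybridized to human Affymetrix arrays, per the labels. The deposited values are 1 linear intensity per probe set, and from the values the authors had scaled each array to a trimmed mean of about 200.1. The summarising software is not given in the sources used here.

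Gene symbols came from the array's annotation table. Control probe sets (67 of 12625) were left out. Intensities were converted to log2(intensity + 8.26), the offset being the pooled 10th percentile, and quantile normalized. The lowest 40% by mean were left out, and 7535 were tested with limma 3.58.1 (R 4.3.3; lmFit, eBayes, 2-sided, 12 arrays, threshold 0.05), checked on simulated data.

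Each gene of the list is reported. Values per array are given for genes with an unadjusted p under 0.05 in any comparison and for the brightest of each role. Those of HMGCS1, SQLE, APOD and ABCA2 were added after their values were seen. A further gene is named where it is among the 2 smallest such p values against placebo. Genes, lists and alternatives were chosen with earlier results of these data known. Over the 4 groups same-numbered arrays were not treated as pairs: their deviations correlated between −0.22 and 0.41, above 0.1 in 5 of 18 pairs. All 3 pairs of the estrogen and combined groups were above 0.1, and these groups were also fitted as pairs. Alternatives varied normalization, filter, offset, variance model, array weights, arrays, replicate block and probe set choice.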

Additional observations from a re-analysis of the deposited data

Results flagged for a closer look

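The 28S ribosomal RNA control, which is no part of the comparisons, read 841 on estrogen array 1 and 1354 on estrogen plus progesterone array 1, above the highest placebo array, at 182. No gene of the list was flagged for a difference between hormone effects.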

How the results depend on the processing

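No gene of the list passed limma's adjusted threshold in any of the 9 tests under any alternative, the replicate block included, where the count was 0 in each. At an unadjusted p under 0.05 the counts of 2, 2 and 1 for estrogen, progesterone and both hormones against placebo ran from 0 to 3, 0 to 4 and 0 to 2. All were 0 without placebo array 1, 3, 3 and 2 without the 2 rRNA-rich arrays, and 1, 4 and 2 with array weights, and that for estrogen was 0 with no filter on dim probe sets. The counts of 1 and 2 for the estrogen and progesterone main effects each ran from 0 to 3, and the counts of 0 reached 3 for both hormones against progesterone, 2 for the interaction and 4 for the F test. No log2 change turned its sign for a gene of the list at an unadjusted p under 0.05 or without overlap, in that comparison. Nor did it for the further genes under the alternatives run, each in the comparison it was chosen for. Genes given only as the brightest of their role were not followed, and the sign of CLU differed between scalings. With the replicate block IDI1 gave −0.56 with estrogen and PMVK −0.65 with progesterone, and no adjusted call changed. Between scalings the sign differed for at most 4 of 27 genes in a comparison, at log2 changes of 0.07 or less after quantile normalization. The median change of the list moved by more than the spread of 0.06 between arrays of a group under some. With array weights it was −0.14 with progesterone, −0.0089 with both hormones and 0.11 for the interaction. The interaction median was 0.13 with the lowest 60% of probe sets left out and 0.13 without the 2 rRNA-rich arrays. With the mean over a gene's probe sets, the estrogen median was −0.043. Leaving out 1 array at a time gave medians from −0.049 to 0.026 with estrogen, −0.14 to −0.051 with progesterone, −0.015 to 0.074 with both hormones, 0.010 to 0.11 for both against estrogen, 0.083 to 0.19 for both against progesterone, and 0.091 to 0.29 for the interaction. The cause of these shifts was not tested. Precision is limited with 3 arrays a group and by dim probe sets.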
